A study of Mus musculus with 24 samples.

Results

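The genes described here are 27 genes of cholesterol synthesis, uptake and export, chosen by name from a fixed list of symbols among the 16821 genes of the deposited tables, and all 27 were found and passed the filter on low counts. They were measured by 3′ mRNA sequencing in IWAT, the inguinal depot of white fat under the skin, from 24 male C57BL6/J mice, 6 on each of 4 diets. The elemental control diet held elemental amino acids with 0.86% methionine, and the elemental MR (methionine restriction) diet held elemental amino acids with 0.17% methionine. The casein control diet held intact casein with 0.86% methionine, and the oxidized casein MR diet held casein whose methionine had been lost by oxidation and was then returned to 0.17%. Feeding began when the mice were 5 weeks old and lasted 12 weeks, and tissue was taken at an age of 4 months, 4 h after food was withdrawn. The protocol counts 8 mice per diet, of which 6 per diet are analysed here, each as its own library. The series asks how MR built on oxidized casein compares with MR built on elemental amino acids. In the casein pair, oxidation and methionine level change together, and in the 2 control diets the protein source differs at an equal methionine level.

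Cells make cholesterol from acetyl-CoA through mevalonate, farnesyl diphosphate, squalene and lanosterol. When sterols in the endoplasmic reticulum fall, SCAP and the precursor of SREBP2, the product of Srebf2, are released together from INSIG. The cleaved SREBP2, a transcription factor, then switches the synthesis genes on. When sterols accumulate, oxysterols activate the nuclear receptor LXR, which raises the exporters Abca1 and Abcg1. Adipose tissue is a large store of cholesterol, most of it taken up from lipoproteins and held unesterified around the lipid droplet. The members were read in 4 role groups: 8 genes of the mevalonate branch and of isoprenoids, 11 genes from squalene to cholesterol, 4 genes of transcriptional control and sterol transport within the cell, and 4 genes of uptake, export and storage. The first 19 are called the synthesis genes below.

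Library totals ran from 7468336 to 19868913 reads. Levels are CPM (a gene's reads relative to its library's total, scaled by TMM), and a gene was called changed at an edgeR Benjamini-Hochberg adjusted p under 0.05 over 15176 genes. All 8 adipocyte markers were detected, and their summed level ran from 19874 to 60741 CPM. Hepatocyte markers, checked because the series' design text names liver, summed to 63.2 to 9910 CPM, with the highest mean log2 level (9.24) in elemental control 6. Skeletal muscle markers set elemental control 2 (mean log2 level 10.1) and elemental MR 2 (9.09) apart. Lymph node transcripts set libraries apart: the mean log2 CPM of 8 B cell markers was 4.85 to 6.51 in 15 libraries and at most 2.74 in the other 9. By diet, the 15 comprised 4 elemental control, 5 elemental MR, 4 casein control and 2 oxidized casein MR libraries. In bulk tissue, fewer cells of a type and less RNA per cell cannot be told apart.

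The RefSeq promoter windows (GRCm38.p6, 250 bases before to 50 after the start site) of 4 genes are shown, 3 for their place in the diet contrasts below and Hmgcs1 for its motif match. Nsdhl and Acat2 are the members called between the control diets, Insig1 is the sterol sensor that moved most among the other pathway genes, and Hmgcs1 is the member with a match to the sterol response element core. Capitals mark matches, on either strand, to that core (TCACNCCAC, where SREBP proteins bind) and to the CCAAT box (CCAAT, bound by NF-Y). The windows lie at chr13:119690101-119690400 (plus strand, Hmgcs1), chrX:72918271-72918570 (plus, Nsdhl), chr17:12960676-12960975 (minus, Acat2) and chr5:28071162-28071461 (plus, Insig1), each written 5′ to 3′ along the gene.
Hmgcs1: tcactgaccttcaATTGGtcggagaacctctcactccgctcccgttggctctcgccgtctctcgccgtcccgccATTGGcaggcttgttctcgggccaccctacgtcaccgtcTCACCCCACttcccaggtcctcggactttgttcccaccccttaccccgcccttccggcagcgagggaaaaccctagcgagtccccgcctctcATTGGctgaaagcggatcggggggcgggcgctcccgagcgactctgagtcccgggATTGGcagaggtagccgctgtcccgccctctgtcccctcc
Nsdhl: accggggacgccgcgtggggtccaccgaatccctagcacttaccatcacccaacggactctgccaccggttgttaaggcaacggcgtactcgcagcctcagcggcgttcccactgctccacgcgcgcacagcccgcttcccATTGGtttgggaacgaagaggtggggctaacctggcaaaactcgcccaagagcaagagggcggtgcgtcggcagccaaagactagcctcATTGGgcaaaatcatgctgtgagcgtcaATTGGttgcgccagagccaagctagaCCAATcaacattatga
Acat2: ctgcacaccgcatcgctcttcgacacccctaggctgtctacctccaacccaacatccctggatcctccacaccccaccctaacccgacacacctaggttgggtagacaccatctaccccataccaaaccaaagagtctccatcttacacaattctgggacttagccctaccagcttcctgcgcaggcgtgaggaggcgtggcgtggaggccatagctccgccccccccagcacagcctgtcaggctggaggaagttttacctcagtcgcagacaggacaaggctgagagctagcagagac
Insig1: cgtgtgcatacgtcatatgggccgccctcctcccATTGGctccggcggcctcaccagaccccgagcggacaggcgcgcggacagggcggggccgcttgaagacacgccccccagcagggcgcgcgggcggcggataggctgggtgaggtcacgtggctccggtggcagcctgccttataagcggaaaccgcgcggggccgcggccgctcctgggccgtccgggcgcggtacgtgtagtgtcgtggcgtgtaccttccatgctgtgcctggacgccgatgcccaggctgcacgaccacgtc

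Windows were found for 20 of the 27 members. Sqle, Fdps, Fdft1, Stard4, Abcg1, Npc1 and Scarb1 had none. A CCAAT box lay in the windows of 15 of 16 synthesis genes (93.8%), with Acat2 as the exception, and in those of 41.1% of all 27025 genes in the RefSeq table. Nsdhl and Hmgcs1 each held 4 such matches and Insig1 held 1. The sterol response element core was found in 1 of the 16 synthesis genes (6.25%) and in 1.44% of all genes, in Hmgcs1 at 137 bases before the start. The E-box CACGTG was found in Sc5d, Dhcr7 and Hsd17b7 (18.8% of the 16) and in 8.09% of all genes. Of 26 other sterol pathway genes with a window, 65.4% held a CCAAT box, 3.85% the core and 19.2% the E-box. Of the 4 members outside synthesis with a window, 3 held a CCAAT box and 1 the E-box. These are letter matches in a short window and not measured binding sites.

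The widest contrast for cholesterol synthesis was between the 2 control diets. In casein control fat 17 of the 19 synthesis genes had a negative log2 fold change against elemental control fat. Nsdhl fell 1.80-fold and Acat2 1.74-fold, and both were called. These 2 calls of 27 members (0 called higher) stand beside 98 of 15176 genes called lower (0.646%). At an unadjusted p under 0.05, 12 of the 27 members were lower and 0 higher, beside 9.54% of all genes lower, and all 12 were synthesis genes. The median log2 fold change was -0.56 over the 19 synthesis genes, 0.09 over the other 8 members and 0.02 over all genes tested.

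Nsdhl encodes the sterol dehydrogenase that helps strip methyl groups from lanosterol-derived intermediates (chrX:72918557-72958514, plus strand, GRCm38, GENCODE M21). Its level ran from 34.8 to 57.5 CPM in the 6 elemental controls (median 51.5) and from 19 to 43.7 CPM in the 6 casein controls (median 23.8). With casein, 5 of 6 libraries lay below every elemental control, and casein control 5 was the exception. The means were 47.8 ± 8.89 and 26.5 ± 8.97 CPM (SD, n = 6 each). On the log2 scale the change was -0.85 (SE 0.19), with an edgeR adjusted p of 0.0396.

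Acat2 encodes the cytosolic thiolase that joins acetyl-CoA units at the entry of the pathway (chr17:12942890-12960747, minus strand). Elemental controls ran from 90.8 to 166 CPM (median 128) and casein controls from 44.0 to 89.8 CPM (median 73.5). The groups did not overlap, as was the case in this direction for 114 genes (0.751% of those tested). The means were 125 ± 29.7 and 71.7 ± 15.8 CPM (SD, n = 6 each). The log2 change was -0.80 (SE 0.19), with an edgeR adjusted p of 0.0484. Acat3, a neighbouring gene of the same family, could share reads with Acat2, and its highest library stood at 10.2 CPM.

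Hepatocyte markers moved with this contrast, with a median summed level of 895 CPM in elemental and 442 CPM in casein controls. Without elemental control 6, the library highest in them, the log2 fold change was -0.82 for Nsdhl and -0.78 for Acat2. The part of hepatocyte RNA in these values was not tested. Both calls sit near the threshold. Neither remained when any of elemental controls 1, 3, 5 or 6 or casein controls 1, 2, 3, 4 or 6 was left out, or when only the 2 control diets were fitted. The count was 3 without elemental control 2 (with Fdps) or elemental control 4 (with Lss), and 7 without casein control 5, in which Cyp51, Msmo1, Fdps, Lss and Sc5d joined. The count of all genes called lower rose in these runs as well, from 98 to 197, 186 and 163. Over these 12 runs the log2 fold change ran from -1.05 to -0.77 for Nsdhl and from -0.88 to -0.69 for Acat2. Within libraries with lymph node transcripts (4 against 4) 5 members and 161 of all genes were called lower, with Nsdhl at -1.02 and Acat2 at -0.98. Within those without them (2 against 2) 0 were, with Nsdhl at -0.56 and Acat2 at -0.43.

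**Figure D1:**
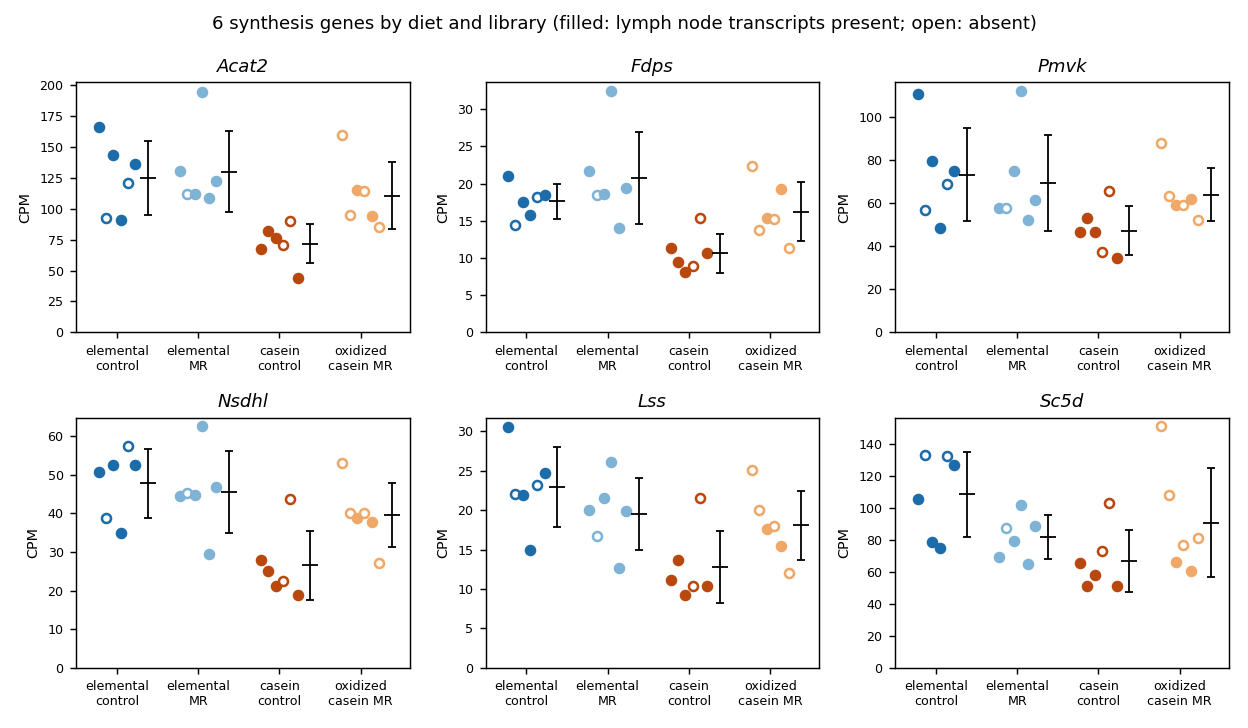
CPM (y axis, from 0) of 6 synthesis genes in each library of the 4 diets. Points are libraries, filled where lymph node transcripts were present and open where absent, and the black bar is the mean ± SD of 6; for Acat2 all 6 casein controls lie below all 6 elemental controls, and the highest casein control point of each gene is casein control 5.

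Of the mevalonate branch, Pmvk and Fdps were the other genes past an unadjusted 0.05 between the control diets. Fdps, which makes farnesyl diphosphate, the branch point to sterols and isoprenoids, ran from 14.4 to 21.1 CPM in elemental controls (median 17.9) and from 8.14 to 15.4 CPM in casein controls (median 10.1), so that 5 of 6 casein libraries lay below every elemental control. Its log2 fold change was -0.72 (SE 0.19, edgeR adjusted p = 0.0727). Gm43738, an annotated gene on the same strand, covers 7512 bases of Fdps including its 3′ end, so reads of Fdps could be shared. Pmvk, phosphomevalonate kinase, had -0.63 (SE 0.20, edgeR adjusted p = 0.151). Mvd, the decarboxylase of the branch, ran from 10.1 to 17.1 CPM (median 10.9) in elemental controls, 4.34 to 15.4 (8.07) in casein controls, 6.37 to 13.5 (9.66) with elemental MR and 3.92 to 16 (7.39) with oxidized casein MR. For Mvd 5 of 6 casein controls lay below every elemental control, casein control 5 being the exception, and the gene did not pass an unadjusted 0.05. Hmgcs1, the synthase that makes HMG-CoA, and Mvk, mevalonate kinase, overlapped between the control diets, with Hmgcs1 means of 239 ± 49.5 and 198 ± 72.7 CPM and Mvk means of 22.2 ± 4.60 and 21.5 ± 10.8 CPM. For each, 5 of 6 casein controls lay below the elemental control median, casein control 5 being the exception. By lymph node transcripts, Mvk ran from 11.7 to 21.2 CPM in the 15 libraries with them and from 20.6 to 43.0 CPM in the other 9. Hmgcs1 ran from 115 to 297 and from 173 to 330 CPM. Ggps1, which draws farnesyl diphosphate off to geranylgeranyl diphosphate, stayed between 12.6 and 19.4 CPM in all 24 libraries. Idi1, the isomerase of the isoprenoid units, had only 1 to 24 reads per library, which limits its precision.

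From squalene onward 9 of 11 genes were lower in casein controls at an unadjusted p under 0.05, with Nsdhl called. Lss, which closes squalene epoxide into lanosterol, went from 22.9 ± 5.04 to 12.8 ± 4.56 CPM (SD, n = 6 each), a log2 change of -0.84 (SE 0.21) with an edgeR adjusted p of 0.0626. Its 6 elemental controls ran from 15 to 30.6 CPM (median 22.6) and its 6 casein controls from 9.30 to 21.6 CPM (median 10.8), with 5 of the 6 below every elemental control. Sc5d, a sterol desaturase near the end of the pathway, had a value of -0.70 on the log2 scale (SE 0.21, edgeR adjusted p = 0.130), with 5 of 6 casein libraries below the elemental range of 74.5 to 133 CPM. Dhcr7, the last reductase, had -0.57 (SE 0.18), Cyp51, the lanosterol demethylase, -0.56 (SE 0.19), and Msmo1, the methylsterol oxidase, -0.51 (SE 0.17). Sqle, squalene epoxidase, had -0.58 (SE 0.25), Hsd17b7, a keto-reductase, -0.54 (SE 0.22), and Fdft1, squalene synthase, -0.52 (SE 0.16). Adjusted p for these 6 ran from 0.118 to 0.333 in edgeR. Ebp, the sterol isomerase, measured 47.3 ± 11.2 CPM in elemental and 48.2 ± 8.62 CPM in casein controls, and Tm7sf2, a sterol reductase, 3.78 ± 1.23 and 2.90 ± 0.65 CPM. Another annotated gene covers the 3′ end of Lss, Fdft1, Cyp51 and Mvd on the opposite strand, and whether counting used the strand is not given in the sources used here.

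**Figure D2:**
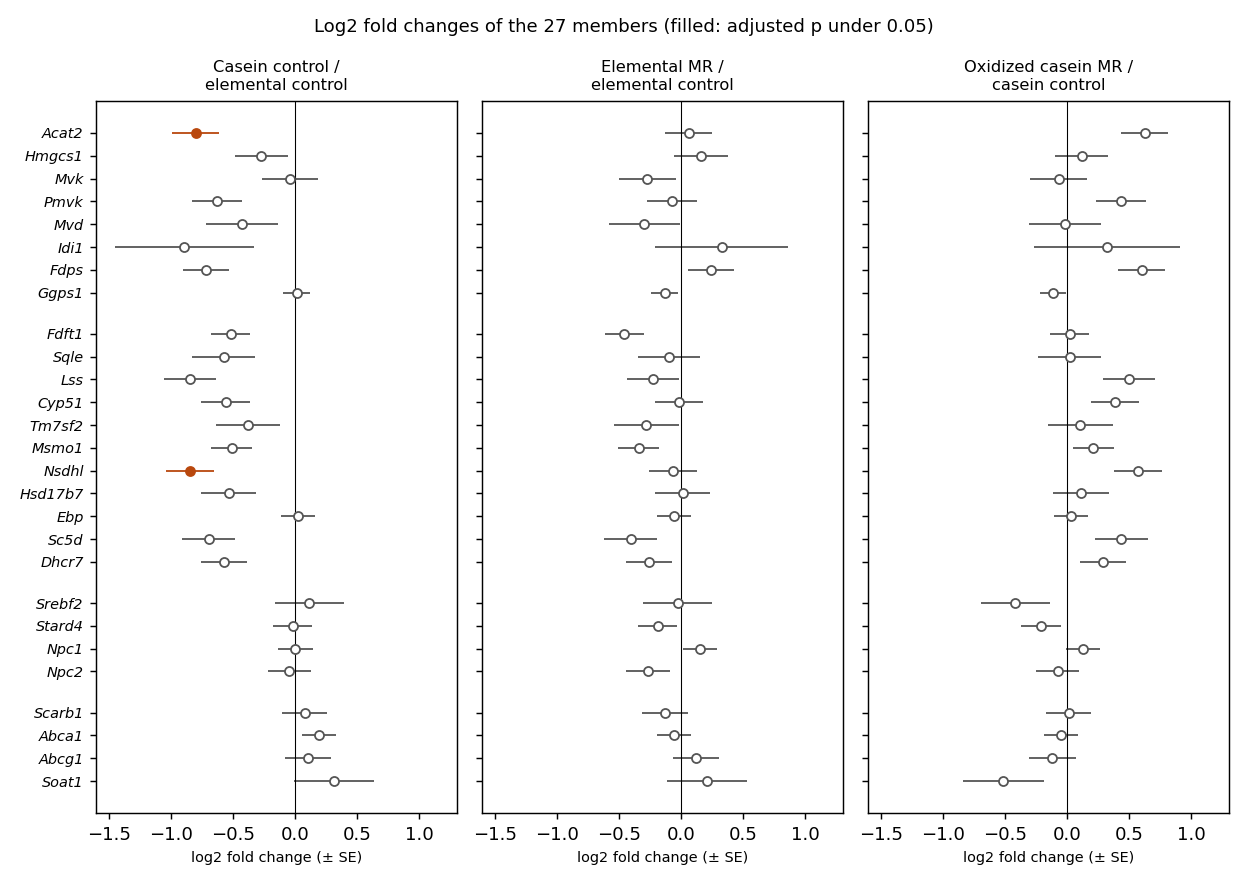
Log2 fold change (x axis; point ± SE) of each of the 27 members (y axis, by role group) in 3 comparisons, all on the same scale. Filled points are called at an adjusted p under 0.05: Nsdhl and Acat2 between the control diets and 0 members in the MR comparisons.

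With MR on elemental amino acids no synthesis gene passed the test. Of the 27 members 0 were called in edgeR (beside 0.244% of all genes) or in DESeq2 (beside 153 genes called higher and 60 lower). The median log2 fold change of the members was -0.08. At an unadjusted p under 0.05, 2 were lower and 0 higher, a share close to the 5.08% of all genes lower. The 2 were Fdft1 (log2 fold change -0.46, SE 0.16, edgeR adjusted p = 0.261) and Msmo1 (-0.34, SE 0.17). Fdft1 ran from 14.1 to 18.9 CPM in elemental controls (median 16.8) and from 9.08 to 15.3 CPM with elemental MR (median 12.5), with 5 of 6 MR libraries below every control. It ran from 6.94 to 14.5 CPM (median 11.7) in casein controls and from 8.19 to 13.7 CPM (median 12.4) with oxidized casein MR, so the elemental controls had the highest median of the 4 diets. Nsdhl with elemental MR ran from 29.4 to 62.5 CPM (median 45.0) and Acat2 from 108 to 195 CPM (median 117), and both overlapped their controls.

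With MR on oxidized casein several of the genes that were low in casein controls had higher mean levels, without a call. In edgeR 0 of 27 members were called, beside 3.82% of all genes in either direction and 3.35% higher. At an unadjusted p under 0.05, 5 were higher (Acat2, Fdps, Nsdhl, Lss and Pmvk) and 0 lower, beside 9.67% of all genes higher. The median was 0.21 over the synthesis genes, -0.10 over the other 8 members and -0.06 over all genes. Of the 19 synthesis genes 16 had a positive log2 fold change, including all 11 from squalene onward.

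Acat2 with oxidized casein MR ran from 85.1 to 160 CPM (median 105), and 5 of these 6 libraries lay above every casein control (log2 fold change 0.63, SE 0.19, edgeR adjusted p = 0.0657). Nsdhl ran from 27.1 to 53.1 CPM (median 39.4), all 6 above the casein control median but only oxidized casein MR 1 above casein control 5 (0.57, SE 0.19, adjusted p = 0.109). Fdps had 0.60 (SE 0.19, adjusted p = 0.0764), Lss 0.50 (SE 0.21) and Pmvk 0.43 (SE 0.20). Acat2 passed with median-of-ratios scaling and without the filter on low counts. With a term for lymph node transcripts Acat2 and Fdps passed, and in DESeq2 Acat2, Fdps and Nsdhl did. Without casein control 5 the count was 5 (Acat2, Cyp51, Fdps, Lss and Nsdhl), without oxidized casein MR 6 it was 3 (Acat2, Fdps and Nsdhl), and without oxidized casein MR 2 it was 1 (Acat2). Of all genes, 710, 568 and 510 were called higher in these runs, against 509 with all libraries. In the other 9 of the 12 runs the count stayed at 0. Without oxidized casein MR 1 the log2 fold changes were at their lowest. They were 0.48 for Acat2 and Fdps, 0.47 for Nsdhl, 0.38 for Lss and 0.32 for Pmvk, beside 325 genes called higher. With only the casein pair in the fit 0 members were called, beside 319 genes called higher. Adipocyte markers moved in the same direction, with a median summed level of 29077 CPM in casein controls and 43857 CPM with oxidized casein MR, and their part in these values was not tested. Among libraries that held lymph node transcripts Acat2 and Nsdhl had log2 fold changes of 0.62 and 0.70, and among those that did not 0.56 and 0.34, with 0 members called in either. Of all genes, 5 were called higher and 0 lower among the former, and 75 higher and 97 lower among the latter.

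Tested directly, the 2 MR effects differed for 0 members and for 0 of all genes (0%) at the adjusted threshold in edgeR. In DESeq2 they differed for 0 members, beside 2 of all genes with a more positive effect on casein and 0 with a more negative one. At an unadjusted p under 0.05, 7 members showed a more positive effect of MR with casein than with amino acids and 0 a more negative one, beside 2.10% of all genes. They were Sc5d (difference in log2 fold change 0.84, SE 0.30), Lss (0.73, SE 0.29), Nsdhl (0.64, SE 0.27), Acat2 (0.57, SE 0.27), Msmo1 (0.55, SE 0.24), Dhcr7 (0.54, SE 0.26) and Fdft1 (0.48, SE 0.22), each with an edgeR adjusted p of 0.91. Among libraries that held lymph node transcripts the Sc5d difference was 0.40. The difference uses the same control libraries as the contrast of the control diets, and casein controls had the lowest of the 4 diet means for 15 of the 19 synthesis genes, elemental controls the highest for 12.

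No member was called between the MR diets. Between oxidized casein MR and elemental MR 0 members and 0 of all genes (0%) were called in edgeR. In DESeq2 0 members were called, beside 9 of all genes called higher and 3 lower. In edgeR 0 members passed an unadjusted 0.05, beside 6.98% of all genes. Log2 fold changes of the 19 synthesis genes ran from -0.90 (Idi1) to 0.16, with a median of -0.12.

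Sterol control, transport and export genes showed no call in any of the 5 comparisons, and 0 of these 8 genes passed an unadjusted 0.05 in any. Of all genes, at most 3.35% were called in either single direction in any comparison. At an unadjusted p under 0.05 these shares ran from 1.23% to 9.67%, so 0 of 8 genes is close to the share of all genes. Srebf2, the gene of SREBP2, ran from 14.3 to 27.2 CPM in elemental controls (median 20.6), 12.7 to 34.8 in casein controls (20.9), 10.1 to 29.7 with elemental MR (20.6) and 9.61 to 28.8 with oxidized casein MR (12.7). The diets overlapped. Its log2 fold change with oxidized casein MR was -0.42 (SE 0.28, edgeR adjusted p = 0.493). Srebf2 was higher where lymph node transcripts were present, at 15.5 to 34.8 CPM in those 15 libraries against 9.61 to 16.7 CPM in the other 9, and its log2 fold change with oxidized casein MR was -0.18 with a lymph node term, -0.0046 among libraries that held these transcripts and -0.29 among those that did not. Npc2, which carries cholesterol out of the lysosome with Npc1, had medians of 870 CPM in elemental controls (677 to 1119), 835 in casein controls (576 to 1481), 728 with elemental MR (646 to 886) and 853 with oxidized casein MR (705 to 925). Npc2 ran from 576 to 886 CPM in the 15 libraries with lymph node transcripts and from 823 to 1481 CPM in the other 9. Npc1 and Stard4, a soluble sterol carrier, stayed between 24.9 and 49.8 CPM and between 6.50 and 13.8 CPM in all libraries. The 3′ end of Npc1 is covered by Rmc1 on the opposite strand, so its reads could be shared.

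Scarb1, the receptor for selective uptake from high-density lipoprotein, ran from 40.1 to 87.0 CPM in elemental controls (median 53.9), 43.8 to 80.1 in casein controls (61.8), 39.0 to 74.6 with elemental MR (50.8) and 44.9 to 72.5 with oxidized casein MR (64.3). Scarb1 ran from 39.0 to 65.1 CPM in the 15 libraries with lymph node transcripts and from 50.0 to 87.0 CPM in the other 9. Within each state its median was lower with oxidized casein MR than in casein controls. These medians were 47.6 against 53.3 CPM with the transcripts (2 against 4 libraries) and 67.2 against 73.4 CPM without (4 against 2). The exporter Abca1 had means between 72.6 and 86.3 CPM over the 4 diets, and Abcg1 means between 21.0 and 23.0 CPM, each within the spread of single libraries. Soat1, which esterifies cholesterol for storage and is abundant in macrophages, ran from 8.12 to 24.2 CPM in elemental controls (median 11.7), 6.61 to 27.9 in casein controls (17.7), 10.3 to 21.4 with elemental MR (15.4) and 6.81 to 18.0 with oxidized casein MR (11.7). With oxidized casein MR its log2 fold change was -0.51 (SE 0.33, edgeR adjusted p = 0.462). Soat1 stood at 8.36 to 27.9 CPM in the 15 libraries with lymph node transcripts and at 6.61 to 12.2 CPM in the 9 without. Its log2 fold change was -0.15 with a lymph node term and -0.36 among libraries that held these transcripts, and it turned to 0.19 (SE 0.28) among those that did not. The summed level of 8 macrophage markers had a median of 912 CPM in casein controls and 557 CPM with oxidized casein MR, and the part of macrophages in the Soat1 values was not tested.

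**Figure D3:**
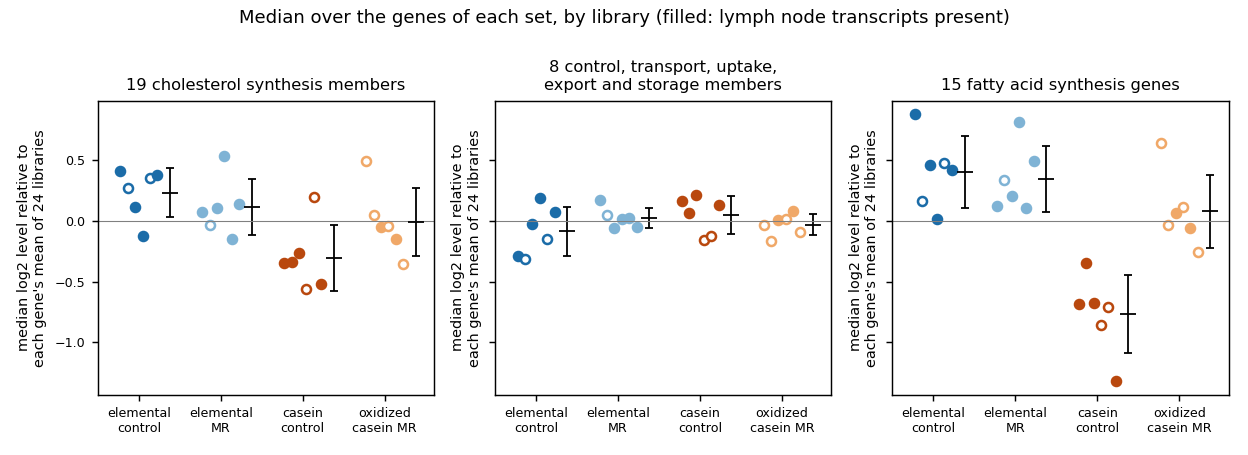
Median over the genes of a set of the log2 level relative to each gene's mean of 24 libraries (y axis), by diet (x axis), for the 19 synthesis genes, the other 8 members and 15 fatty acid synthesis genes. Points are libraries (filled with lymph node transcripts, open without) and bars are mean ± SD of 6; casein controls run from -0.56 to 0.20 for cholesterol synthesis and from -1.32 to -0.35 for fatty acid synthesis, while the other 8 members stay between -0.31 and 0.22.

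Among 30 other genes of the pathway, 2 were called lower and 0 higher in casein controls (beside 0.646% of all genes lower), with a median log2 fold change of -0.02. Insig1, which anchors SREBP in the endoplasmic reticulum and is itself an SREBP target, ran from 92.2 to 237 CPM in elemental controls (median 128) and from 32.4 to 69.0 CPM in casein controls (median 51.3). The groups did not overlap (log2 fold change -1.48, SE 0.22, edgeR adjusted p = 0.00247). Aacs, which makes acetoacetyl-CoA in the cytosol, went from 77.8 ± 16.7 to 39.9 ± 10.8 CPM (SD, n = 6 each), 1.95-fold lower (SE 0.20 on the log2 scale, edgeR adjusted p = 0.0235), also without overlap. The Aacs call was lost without elemental control 1, 3 or 5 or casein control 1 or 6, and with only the control diets in the fit both adjusted p were above the threshold (0.0632 for Insig1, 0.131 for Aacs). With oxidized casein MR, 1 of these 30 was called higher and 0 lower, a share close to the 3.35% of all genes called higher. This was Insig1, at 90.2 to 176 CPM (median 105), above every casein control, as were 2.27% of all genes (log2 fold change 1.19, SE 0.22, edgeR adjusted p = 0.00446). Its log2 fold change was 1.11 within libraries with lymph node transcripts (2 against 4) and 1.10 within those without (4 against 2), where the call was lost (adjusted p = 0.0778 and 0.221). With elemental MR 0 of the 30 were called, and Insig1 ran from 86.0 to 137 CPM (median 104). DESeq2 called Insig1 for the difference between the MR effects (adjusted p = 0.0130, difference 1.55) and edgeR did not (adjusted p = 0.703, difference 1.53, SE 0.31).

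Fatty acid synthesis genes had larger median fold changes in both casein contrasts. Here, as for Insig1, both contrasts use the same casein controls and are not independent. Between the control diets 8 of the 14 tested were called lower and 0 higher (beside 0.646% of all genes lower), with a median log2 fold change of -1.20 against -0.56 for cholesterol synthesis. The 6 with the smallest p were Acss2, Acly, Me1, Acaca, Fasn and Elovl6, of which Acly, which supplies cytosolic acetyl-CoA to both pathways, was 4.10-fold lower (SE 0.32 on the log2 scale, edgeR adjusted p = 0.00427, and 0.0632 with only the control diets in the fit). With oxidized casein MR 7 of 14 were called higher and 0 lower (beside 3.35% of all genes higher), with medians of 0.82 and 0.21 for the 2 sets. Acaca and Acacb, the acetyl-CoA carboxylases, were 2.36-fold and 2.64-fold higher, and neither was called within the libraries with lymph node transcripts alone (edgeR adjusted p = 0.320 and 0.298). Whether the sets differ from each other was not tested.

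**Figure D4:**
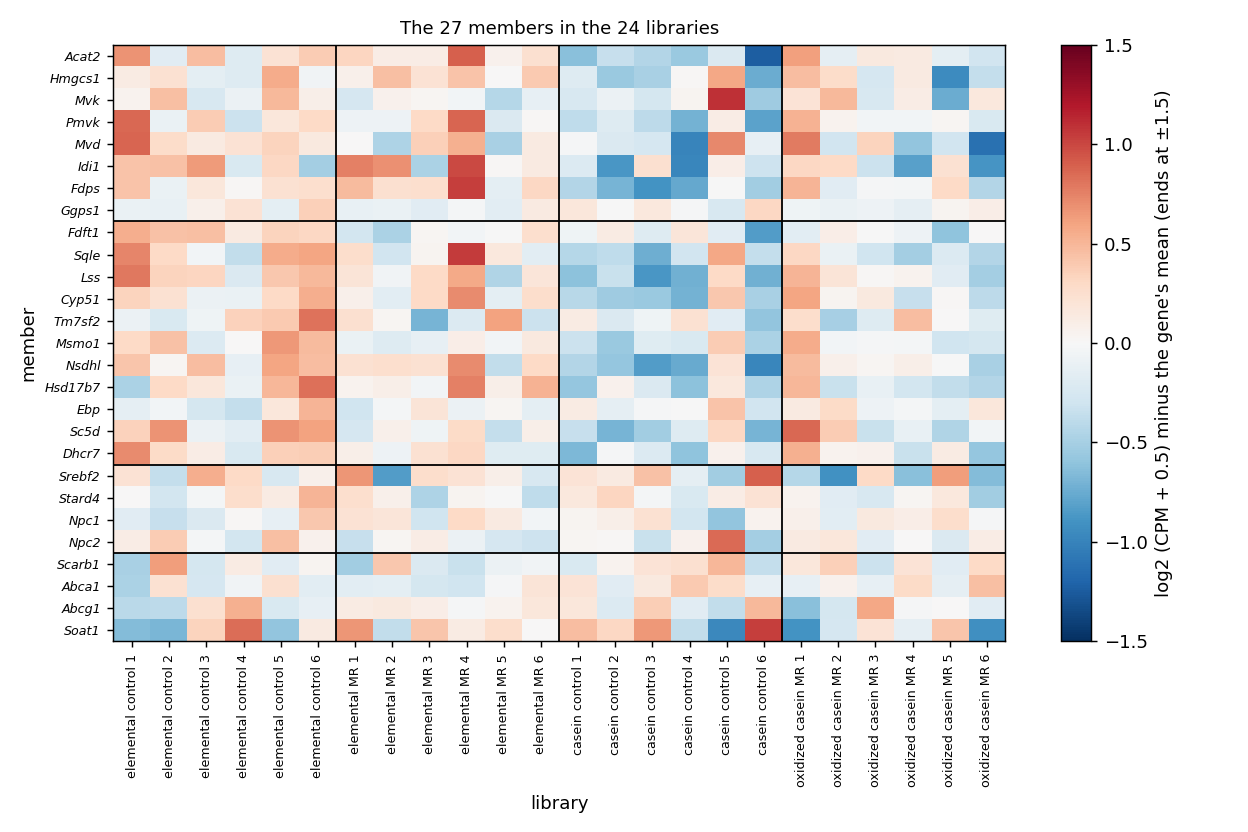
Level of each member (y axis, role groups separated by lines) in each library (x axis, diets separated by lines), as log2 (CPM + 0.5) minus the gene's mean over 24 libraries; the colour scale ends at ±1.5. Blue fills most synthesis genes of casein controls 1 to 4 and 6, whereas casein control 5 is red for many of them; Srebf2 and Soat1 follow other libraries.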

How the data were processed

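Per the labels' protocols, RNA of flash-frozen IWAT was made into QuantSeq 3′ mRNA libraries, an assay that samples the 3′ ends of messages, with 50 bp forward reads. The authors deposited raw counts for 16821 Ensembl genes, each with at least 72 reads in the 24 libraries together. A second deposited table holds a normalized signal: each raw count over its library's median-of-ratios size factor. GRCm38, mm10, DESeq2 1.18.1 and R 3.4.3 appear in the submitters' processing notes. No source used here names the aligner, the counter or whether it used the strand.

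The members were found by symbol in the normalized table and tested on the raw counts in R 4.3.3 with edgeR 4.0.16: filterByExpr by diet (15176 genes kept, 1645 removed), TMM, a model with 1 mean per diet for all 24 libraries, and robust 2-sided quasi-likelihood F tests for 5 comparisons, with Benjamini-Hochberg adjustment over all genes tested. An SE is the absolute log2 fold change over the square root of F. The 5 comparisons share libraries. DESeq2 1.42.0, median-of-ratios scaling, no filter, fits of the compared groups alone, a lymph node term (B cell markers above a mean log2 CPM of 4), fits within each lymph node state, removal of the 2 muscle-rich libraries and removal of each library were the alternatives. The code was tested on simulated data. The smallest chi-square per degree of freedom of the 60 pairs within a diet was 5.84, so all libraries were counted as separate samples, and their mouse numbers are the only sign of separate animals.

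The members, lists and the lymph node criterion were chosen with earlier results of these data known. By rule, values by library are given for members called in any comparison and for those of largest and smallest change on casein in each role group. The other members described by library, such as Fdps and Lss, were chosen after their values were seen. Reads carry no molecular identifiers, so precision rests on the spread between mice.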

Additional observations from a re-analysis of the deposited data

Results flagged for a closer look

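In each diet the highest and the lowest of the 6 libraries were compared with the next one for each of the 27 members on the log2 scale, which gave 108 groups. Chance alone sets a library apart in about 1 in 20 such groups, and 10 were set apart here. Casein control 5 was the highest casein control for Cyp51 (43.6 CPM, next 24.5), Mvk (43.0, next 20.6) and Sqle (12.1, next 6.47). Oxidized casein MR 1 was the highest of its diet for Msmo1 (35.4 CPM, next 23.6), Pmvk (88.0, next 63.2) and Hsd17b7 (12.7, next 8.20). Elemental MR 4 was the highest for Acat2 (195 CPM, next 130) and elemental control 1 for Mvd (17.1 CPM, next 11.6). Fdft1 had low libraries, casein control 6 (6.94 CPM, next 11.1) and oxidized casein MR 5 (8.19 CPM, next 11.4).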

How the results depend on the processing

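The count of members called between the control diets was 2, and it was 5 in DESeq2, 5 with a lymph node term, 5 within libraries with lymph node transcripts, 0 within those without and 0 with only the 2 control diets in the fit; with single libraries left out it ran from 0 to 7. The count of all genes called lower moved with it, from 98 to 368 in DESeq2, 269 with the lymph node term, 161 and 0 within the lymph node states and 2 with only these diets. With oxidized casein MR the count was 0, and it was 3 in DESeq2, 1 with median-of-ratios scaling, 1 without the filter, 2 with the lymph node term and 0 to 5 with single libraries left out, beside 509 genes called higher, 791 in DESeq2, 583, 543 and 689 under the next 3 and 710 without casein control 5. With only the casein pair in the fit the count was 0, beside 319 genes called higher. For elemental MR, the difference between the MR effects and the MR diets it was 0 under every alternative run. Of the log2 fold changes of single genes recomputed under the alternatives, 698 kept direction and side of the threshold, 32 newly passed, 37 no longer passed and 1 changed sign: Soat1 with oxidized casein MR was 0.19 within the libraries without lymph node transcripts. Where the cause of a change is not fewer libraries, it was not tested. Within libraries without lymph node transcripts elemental MR had 1 library, so comparisons with it were not run there. No paired analysis was possible because the labels give each mouse its own number and none is shared between diets. By their lowest library, Idi1 (1 read), Tm7sf2 (23) and Mvd (38) rest on the fewest reads of the members.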

Other observations

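Synthesis genes tended to be high or low in the same libraries. Casein control 5 held the highest value among casein controls for 15 of the 19 synthesis genes, oxidized casein MR 1 the highest of its diet for 14, elemental MR 4 for 12 and elemental control 1 for 8. The lowest value of the diet fell to elemental control 4 for 11 of the 19, to oxidized casein MR 6 for 10, and to elemental MR 5 and casein control 6 for 9 each. The median log2 level of the 19 genes in casein control 5 was 0.20 above their means of 24 libraries, while the other casein controls lay between -0.56 and -0.27. For the 15 fatty acid synthesis genes casein control 5 stood at -0.71, inside the range of the other casein controls (-1.32 to -0.35). Casein control 5 had no lymph node transcripts, nor did casein control 4, whose synthesis median was -0.56. By mean log2 level of hepatocyte markers, elemental MR 4 (6.53) and oxidized casein MR 1 (6.39) were the highest of their diets. Casein control 6 (1.77) was the lowest of all libraries. Casein control 5 (2.93) and elemental control 1 (5.79) were not the highest of theirs. The part of hepatocyte RNA in these values was not tested.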
